A study of Mus musculus with 12 samples.

Results

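The genes described here encode the voltage-gated sodium and calcium channels: the pore subunits that form the channels and the auxiliary subunits that bind them. They were chosen by symbol, as every gene of the Scn family and of the Cacna, Cacnb and Cacng families listed in the deposited tables of both genotypes. This gave 35 of 17564 genes. Of these 16 are pore subunits (8 sodium alpha and 8 calcium alpha1 subunits) and 19 are auxiliary subunits (4 sodium beta, 4 calcium alpha2delta, 4 calcium beta and 7 calcium gamma subunits). Cacna1f, Cacna1s, Cacng1, Scn11a and Scn4a, which the mouse annotation also lists in these families, were not analysed here.

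Gene expression was measured by RNA-seq in the ventral hippocampus (vHPC) of male mice on a C57BL/6 background, either wild type (WT) or carrying 1 copy of a knock-in allele that puts methionine in place of a valine in the proregion of brain-derived neurotrophic factor (BDNF het-Met, here also het-Met). From 2 months of age the mice drank corticosterone (CORT), the main glucocorticoid of rodents, at 25 mg/l in 1% ethanol, or 1% ethanol alone (VEH), for 6 weeks. Each genotype had a VEH and a CORT group, which made 4 groups of 3 libraries and 12 libraries in all, and each library held the RNA of 2 animals. The comparison asked which channel genes CORT changed in each genotype.

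Voltage-gated sodium channels carry the inward current that starts and propagates the action potential. Voltage-gated calcium channels turn depolarisation into calcium entry that releases transmitter, drives dendritic calcium spikes and signals to the nucleus. Auxiliary subunits set how many channels reach the membrane and how they open and inactivate, and most gamma subunits also act as partners of AMPA-type glutamate receptors. In hippocampal slices, glucocorticoids are known to enlarge calcium currents of pyramidal cells.

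Values per library were not analysed here, because the tables hold fitted values. For each gene these are 1 mean expression over all libraries, in log2 CPM (read counts scaled to library size), and per genotype the log2 fold change, given here as CORT over VEH so that positive values are higher under CORT. Each ± is the standard error (SE) of the limma-voom fit, with 3 libraries per group by the labels. A gene is said to have risen or fallen where its limma p, uncorrected for the number of genes, was below 0.05, and a DEG in addition changed over 1.3-fold. The labels plan 35 to 40 M reads for each library, and the depth counted is unknown. The listed residual degrees of freedom were 7, where 12 libraries in 4 groups leave 8, and the SE was a median of 1.12 times larger in WT than in het-Met mice. That ratio is the one that 2 libraries in 1 WT arm would give (1.12), and whether a library was left out of the fit was not tested. Fkbp5, a gene that glucocorticoids are known to induce, was higher under CORT by 0.21 ± 0.09 in WT (p 0.0343) and by 0.43 ± 0.08 in het-Met mice (p 1.63e-04).

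After Benjamini-Hochberg adjustment of the limma p over all genes, no channel gene was below 0.05 in WT or het-Met mice. Among them the lowest adjusted p was 0.999 in WT (Scn10a) and 0.264 in het-Met mice (Scn1a). Each rise or fall below therefore holds at an uncorrected p alone, and is read against the share of all genes called by the same rule.

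Channel genes were abundant, with a median mean expression of 6.62 log2 CPM against 3.87 for all genes. Per kilobase of exon, the sodium alpha subunits of central neurons led their class, with mean levels of 5.13 log2 CPM per kb for Scn2a, 4.89 for Scn8a, 3.49 for Scn1a and 2.26 for Scn3a. Scn7a, whose product senses sodium rather than voltage, lay at 0.25. Scn9a and Scn10a, known for their part in pain-sensing neurons, lay at -1.08 and -4.51. Among beta subunits Scn2b (6.03) and Scn3b (5.56) were above every alpha subunit per kb, and Scn4b was at 1.39. The calcium alpha1 subunits spanned a narrower range, from 4.49 for Cacna1e (R-type current) to 2.08 for Cacna1d (L-type). Cacna2d1 (4.60), Cacnb3 (5.83) and Cacng7 (5.66) were the most abundant of their classes, and Cacna2d4 (-2.75), Cacnb2 (2.46) and Cacng6 (-1.11) the least. Levels have no error here, so neighbours in these orders cannot be said to differ.

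**Figure D1:**
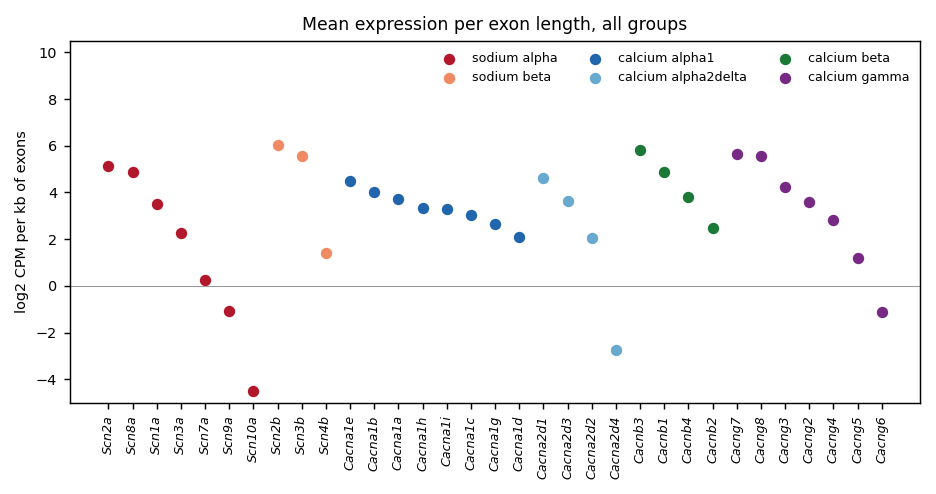
Mean expression of channel genes over all 4 groups, in log2 CPM per kb of exon on the vertical axis, with genes ordered by level within each subunit class (colours). Of the genes plotted Scn10a is lowest at -4.51 and Scn2b highest at 6.03; no error is available for these levels.

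Beginning with the promoters, the 250 bases before the annotated start are shown for 5 pore subunit genes on which the results below turn. These genes are Cacna1e, which rose in both genotypes, the abundant neuronal Scn1a, Scn2a and Scn8a, and Scn10a. The effects of Scn10a differed between genotypes at an uncorrected p alone. The sequences are from RefSeq on build GRCm38.p6, written 5′ to 3′ on the strand of the gene, with each CpG in capitals. They lie at chr1:154725921-154726170 (minus strand) for Cacna1e, chr2:66440838-66441087 (minus) for Scn1a, chr2:65668436-65668685 (plus, the downstream start of those listed) for Scn2a, chr15:100870395-100870644 (plus, the upstream start) for Scn8a and chr9:119719033-119719282 (minus) for Scn10a.
Cacna1e: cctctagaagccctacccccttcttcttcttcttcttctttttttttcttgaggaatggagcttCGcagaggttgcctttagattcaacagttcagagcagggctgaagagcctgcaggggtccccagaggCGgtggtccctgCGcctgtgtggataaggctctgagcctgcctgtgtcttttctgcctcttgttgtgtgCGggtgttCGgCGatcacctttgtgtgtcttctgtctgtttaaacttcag
Scn1a: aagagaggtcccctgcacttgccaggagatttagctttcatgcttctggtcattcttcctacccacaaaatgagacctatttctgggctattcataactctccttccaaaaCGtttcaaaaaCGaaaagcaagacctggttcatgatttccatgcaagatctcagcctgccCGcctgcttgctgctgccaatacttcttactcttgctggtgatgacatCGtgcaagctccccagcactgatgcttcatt
Scn2a: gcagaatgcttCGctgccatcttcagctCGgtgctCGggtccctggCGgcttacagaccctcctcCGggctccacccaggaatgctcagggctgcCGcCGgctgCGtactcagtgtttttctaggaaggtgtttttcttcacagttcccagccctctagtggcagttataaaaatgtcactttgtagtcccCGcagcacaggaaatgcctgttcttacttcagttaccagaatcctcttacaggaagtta
Scn8a: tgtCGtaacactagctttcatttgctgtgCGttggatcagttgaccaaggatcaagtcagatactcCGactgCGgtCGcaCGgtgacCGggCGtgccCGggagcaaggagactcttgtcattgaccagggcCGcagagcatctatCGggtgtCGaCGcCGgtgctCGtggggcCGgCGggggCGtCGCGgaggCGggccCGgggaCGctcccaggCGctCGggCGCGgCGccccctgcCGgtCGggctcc
Scn10a: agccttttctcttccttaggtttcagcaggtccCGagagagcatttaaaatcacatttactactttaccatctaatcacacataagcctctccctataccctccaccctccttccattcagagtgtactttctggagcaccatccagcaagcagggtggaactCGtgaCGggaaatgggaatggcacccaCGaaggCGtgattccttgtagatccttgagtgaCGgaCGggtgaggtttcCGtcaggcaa
Of the windows shown, the upstream one of Scn8a is CpG-dense with 30 CpGs, while those of Scn1a, Cacna1e, Scn10a and Scn2a hold 4, 6, 8 and 9. The other listed starts of Scn8a and Scn2a hold 9 and 2 CpGs. The Cacna1e window lies inside the annotated gene, whose 5′ end on the minus strand is at 154884501. Those shown for Scn2a, Scn8a and Scn10a also lie inside their genes, whose 5′ ends are at 65620771, 100869858 and 119719322. The CpGs of these windows are therefore those of internal starts. Over 37 promoters of 26 channel genes the median was 9 CpGs with a range of 0 to 50, against a median of 6 for all 32851 promoters of the same length. Scn3a, Scn3b, Cacna1a, Cacna1g, Cacna1h, Cacna2d4 and Cacng4 had no entry. The full glucocorticoid response element, searched as AGAACA and TGTTCT spaced by 3 bases (a palindrome, so that both strands are read at once), was in 0 of 37 channel promoters, exactly or with 1 mismatch. The closest match had 3 mismatches. Among all promoters 3 held it exactly (0.00913%) and 46 with up to 1 mismatch (0.140%), so a window without it was the rule for genes in general. The search covers these 250 bases and no distant sites.

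In WT mice, CORT raised 3 channel genes, all pore subunits: Scn10a, Cacna1e and Cacna1g. No channel gene fell. This is 8.57% of the 35 genes, where 3.83% of all genes were called, 2.25% higher and 1.57% lower. Scn10a was the only DEG among them (background 1.25%).

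Cacna1e encodes the pore of the R-type calcium channel, which opens in dendrites and spines of hippocampal pyramidal cells. Its mean expression was 9.14 log2 CPM, and its log2 fold change was 0.23 ± 0.09 in WT (1.17-fold, p 0.0266) and 0.23 ± 0.08 in het-Met mice (1.18-fold, p 0.0139). It was the one member to rise in both genotypes, and the difference between them was 0.00 with a 95% interval of -0.26 to 0.27. Cacna1g, a T-type channel pore that opens near rest and supports burst firing, had 0.18 ± 0.08 in WT (p 0.0477) and -0.03 ± 0.07 in het-Met mice (p 0.713). The difference, -0.21 with a 95% interval of -0.45 to 0.03 (p 0.0820), did not pass the test. Without the moderation of the SE neither gene would be called in WT, with p 0.0616 for Cacna1e and 0.0848 for Cacna1g.

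Scn10a encodes a tetrodotoxin-resistant sodium channel known from pain-sensing neurons of the dorsal root ganglia. Its log2 fold change was 1.59 ± 0.37 in WT (3.01-fold, p 0.00117) and -0.48 ± 0.31 in het-Met mice (0.718-fold, p 0.147). The difference between genotypes was -2.07 with a 95% interval of -3.12 to -1.02 (uncorrected p 0.00120, adjusted p 1.00), and it was the 1 channel gene of 35 to pass that test at an uncorrected p (background 2.41%). Expression was at the edge of detection, with a mean of -1.51 log2 CPM, which corresponds to 12.3 to 14.0 reads per library at the planned depth. Whether 1 library carried the rise cannot be seen from fitted values. Scn10a also shares an identical stretch of 96 bases, longer than the 75-base reads, with another gene, so some reads may belong to either gene. Of 9 markers of sensory neurons, 4 were measured (Calca, P2rx3, Prph and Trpa1), at mean levels of -0.15 to 0.92 log2 CPM. None of the 4 was called in either genotype. All 4 were lower under CORT in WT, from -0.54 ± 0.51 (Prph) to -0.08 ± 0.21 (P2rx3), with a median of -0.14. In het-Met mice 2 were higher and 2 lower. Their part in the Scn10a result was not tested.

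In het-Met mice 10 channel genes rose and 1 fell. The 10 were the sodium alpha subunits Scn1a, Scn2a, Scn3a, Scn8a and Scn9a, the sodium beta subunits Scn2b and Scn3b, and the calcium alpha1 subunits Cacna1d, Cacna1e and Cacna1h. The gene that fell was Cacng4. These 11 are 31.4% of the 35 genes, where 13.2% of all genes were called, 6.55% higher and 6.64% lower. None was a DEG by the 1.3-fold rule (background 3.24%), since the largest rise was 1.29-fold.

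The sodium pore genes of central neurons rose by small amounts. Scn1a, the main sodium channel of fast-spiking interneurons, had a log2 fold change of 0.19 ± 0.05 in het-Met mice (1.14-fold, p 0.00452) and 0.11 ± 0.06 in WT (p 0.0809). Scn2a, which supports early axonal and dendritic sodium current in pyramidal cells, had 0.17 ± 0.05 in het-Met mice (p 0.00876) and 0.10 ± 0.06 in WT (p 0.106). Scn3a, abundant before birth and lower in the adult brain, had 0.18 ± 0.05 (p 0.00689) and 0.13 ± 0.06 (p 0.0502). Scn8a, the channel that sets spike threshold at the axon initial segment and nodes of Ranvier, had 0.20 ± 0.07 (p 0.0180) and 0.17 ± 0.08 (p 0.0564). Scn9a had the largest rise of the class in het-Met mice, 0.36 ± 0.12 (1.29-fold, p 0.00927), and 0.25 ± 0.13 in WT (p 0.0914). The values of WT lay below the threshold for a call but on the same side of 0 for all 5 genes. Their differences between genotypes ran from 0.03 to 0.12, and no interval of them excluded 0; that of Scn9a was -0.27 to 0.51. Centring by exon length ended the calls of Scn2a, Scn3a and Scn8a (values with the exon lengths). The lowest value of the class in WT was that of Scn7a, 0.07 ± 0.23.

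Of the genes that rose, Scn3a, Scn2a, Scn1a and Scn9a, are neighbours with Scn7a in a cluster on chromosome 2 (GRCm38, 65457118 to 66784914, 1.33 Mb). Scn7a, at the end of the cluster, had 0.05 ± 0.20 in het-Met mice (p 0.826). Apart from Scn7a, the genes of the cluster share identical stretches of 101 to 188 bases with each other, longer than a read. Their values may therefore not be wholly independent. How reads in such stretches were counted is not given in the sources used here. Scn8a, on chromosome 15, shares no such stretch, and its 0.20 lies within the range of those genes. Leaving out the 6 sodium alpha genes with shared stretches, a choice made after seeing the data, 7 channel genes were called in het-Met and 2 in WT mice.

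Of the sodium beta subunits, which link the pore to adhesion molecules and modulate its gating, Scn2b had 0.12 ± 0.04 in het-Met mice (p 0.0205) and 0.05 ± 0.05 in WT (p 0.330). Scn3b had 0.22 ± 0.08 (p 0.0175) and 0.05 ± 0.09 (p 0.605), a difference of 0.17 with a 95% interval of -0.09 to 0.44. The lowest values were those of Scn4b, which is known for resurgent sodium current, at -0.38 ± 0.30 in het-Met and -0.26 ± 0.34 in WT mice. The class was thus divided, with medians of 0.02 (WT) and 0.04 (het-Met).

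The calcium pore subunits that rose in het-Met mice belong to different current types. Cacna1d, an L-type pore active at low voltages, had 0.14 ± 0.06 (p 0.0328, not called after centring by exon length) and in WT 0.11 ± 0.06 (p 0.110). Cacna1h, a T-type pore, had 0.23 ± 0.09 (p 0.0266, or 0.0644 with the ordinary SE) and in WT 0.21 ± 0.10 (p 0.0625). Cacna1c, the main L-type pore of the brain, had the highest values of the class in both genotypes, 0.26 ± 0.13 in het-Met mice (p 0.0643) and 0.26 ± 0.14 in WT (p 0.0970), and passed in neither. Cacna1b, the N-type pore of presynaptic terminals, had 0.15 ± 0.08 and 0.14 ± 0.09. Cacna1a, the P/Q-type pore that carries most transmitter release, had the lowest value in WT, 0.06 ± 0.07, and 0.06 ± 0.07 in het-Met mice. Presynaptic and postsynaptic pore genes thus lay on the same side of 0, with the T-type Cacna1g in het-Met mice as the exception.

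**Figure D2:**
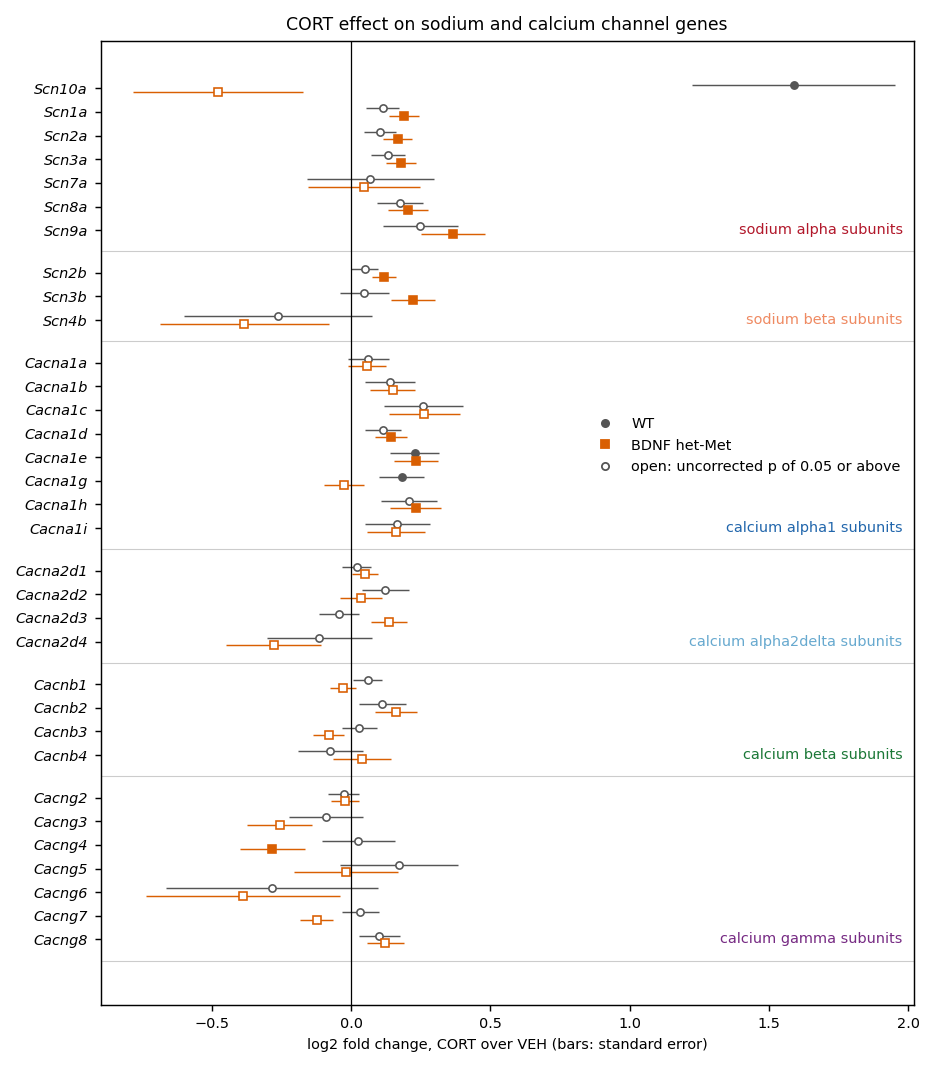
Log2 fold change of CORT over VEH (horizontal axis) for channel genes, in WT (grey circles) and BDNF het-Met mice (orange squares), with the SE of the limma fit as bars and filled symbols for an uncorrected p below 0.05. All pore genes plotted lie to the right of 0 in WT. The widest bars belong to Scn10a, Scn4b and Cacng6, with mean expression of -1.51, 3.71 and -0.12 log2 CPM.

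The auxiliary calcium channel subunits are 15 alpha2delta, beta and gamma genes. None was called in WT and Cacng4 alone in het-Met mice, where 3.83% and 13.2% of all genes were called. With 15 genes, counts this small cannot be told apart from those shares. Cacng4, a gamma subunit that acts as an AMPA receptor partner, had -0.28 ± 0.12 in het-Met mice (0.822-fold, p 0.0328) and 0.03 ± 0.13 in WT (p 0.851). The difference was -0.31 with a 95% interval of -0.69 to 0.08 (p 0.106), and with the ordinary SE the fall had p 0.0760. Cacng6, a weakly expressed muscle-type gamma subunit, had the lowest value of its class in both genotypes, -0.29 ± 0.38 in WT and -0.39 ± 0.35 in het-Met mice. The highest were Cacng5 in WT (0.17 ± 0.21) and Cacng8, the most hippocampal of the AMPA receptor partners, in het-Met mice (0.12 ± 0.07). The median of the gamma subunits was 0.03 in WT, and in het-Met mice, where 6 of 7 were below 0, it was -0.12. Centring by expression quintile brought Cacng3 (-0.26, p 0.0493) and Cacng7 (-0.16, p 0.0225) below the threshold in het-Met mice, and took Scn2b (0.08, p 0.0843) and Cacna1h (0.20, p 0.0526) above it.

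Alpha2delta subunits, which carry channels to the membrane and bind gabapentin, had medians of -0.01 in WT and 0.04 in het-Met mice. Cacna2d2 (0.12 ± 0.09 in WT) and Cacna2d3 (0.14 ± 0.06 in het-Met mice, p 0.0574) were highest. Cacna2d4 was lowest in both, -0.11 ± 0.19 and -0.28 ± 0.17. Beta subunits, which sit on the cytoplasmic side of the pore, had medians of 0.04 and 0.00. Cacnb2 was highest in both genotypes, 0.11 ± 0.08 in WT and 0.16 ± 0.07 in het-Met mice (p 0.0565). The lowest were Cacnb4 in WT (-0.07 ± 0.12) and Cacnb3 in het-Met mice (-0.08 ± 0.06). Among further members (Cacna1i, Cacna2d1, Cacnb1, Cacng2, Cacng3 and Cacng7), log2 fold changes ran from -0.09 to 0.17 in WT and from -0.26 to 0.16 in het-Met mice, and none was called.

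Averaged over both genotypes, with 6 libraries on each side by the labels, the counts of the pore and auxiliary genes were unlike each other. All 16 pore genes had an average above 0, from 0.06 (Scn7a) to 0.56 (Scn10a), with a median of 0.16, and 11 of them rose. Of the 19 auxiliary genes 9 were above 0, the median was -0.02, and 4 rose. None of the 35 fell. The 15 that rose are 42.9% of the genes, where 13.3% of all genes were called, 7.17% higher and 6.18% lower. The median over all genes was -0.00, and 47.8% of them were above 0. No channel gene passed an adjusted p of 0.05 for the average, while 13 of all genes did, and the smallest adjusted p was 0.203 for Scn3a.

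Cacna1e (0.23 ± 0.06, p 0.00270) and Scn3a (0.16 ± 0.04, p 0.00272) had the smallest p of the average, followed by Scn1a (0.15 ± 0.04, p 0.00295). Cacna1c (0.26 ± 0.10, p 0.0199), Cacna1b (0.14 ± 0.06, p 0.0357), Cacnb2 (0.14 ± 0.06, p 0.0346) and Cacng8 (0.11 ± 0.05, p 0.0482) passed on average though in neither genotype alone. For Scn10a (0.56 ± 0.24, p 0.0400) the average joins effects of opposite sign and describes neither genotype. The other members that passed were Scn2a, Scn8a, Scn9a, Cacna1d, Cacna1h, Scn2b and Scn3b, with averages of 0.08 to 0.31. The same direction in both genotypes was found for 25 of 35 channel genes (71.4%), where 62.5% of all genes and 75.8% of those in the top decile of exon length had it. It was found for 14 of 16 pore genes, the exceptions being Scn10a and Cacna1g, and for 11 of 19 auxiliary genes. The VEH and CORT libraries of the genotypes are separate, but their errors come from 1 joint fit.

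**Figure D3:**
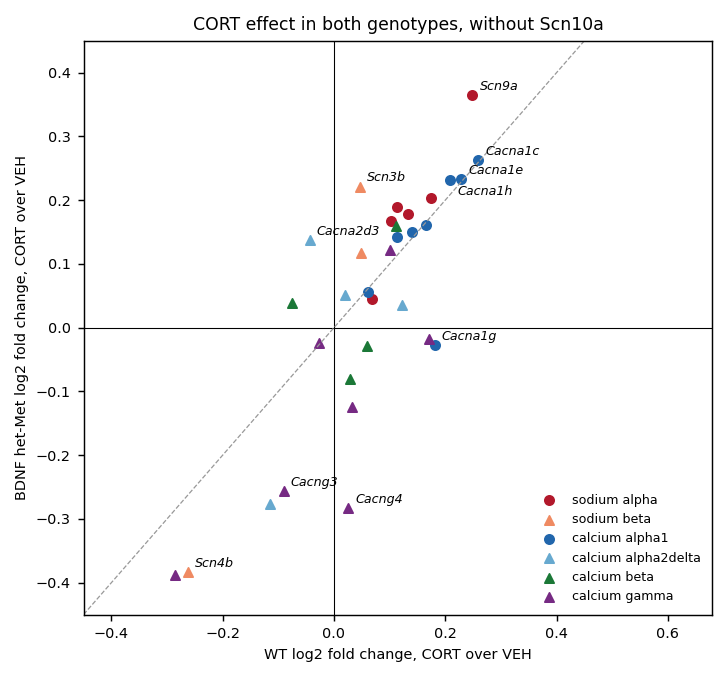
Log2 fold change of CORT over VEH in WT (horizontal axis) against het-Met mice (vertical axis) for channel genes, with circles for pore and triangles for auxiliary subunits and a dashed line of equal effect. Scn10a (1.59 and -0.48) is left out for scale; most pore genes lie above 0 on both axes, and the gamma subunits lie mostly below 0 on the vertical axis.

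Pore genes are also long genes, a property the selection did not use. Their median exon length was 11282 bases, against 4656 for auxiliary genes and 3967 for all genes, and 13 of 16 lay in the top decile of genes by exon length. Genes of that decile as a whole were shifted in the same direction, with 67.7% above 0 in WT and 71.8% in het-Met mice, and with medians of 0.04 and 0.06. On average 26.1% of them rose, where 68.8% of the pore genes did. Averaged over both genotypes, all 16 pore genes were above the median of their own decile, Cacna1a by only 0.006 ± 0.05. In het-Met mice alone Scn10a, Cacna1g and Cacna1a were below that median, at -0.50, -0.09 and -0.009 from it. After centring the fold changes of each decile on its median, a choice made after seeing the data, the median of the pore genes was 0.13 in WT, 0.11 in het-Met mice and 0.11 on average. The calls then became 1 in WT (Scn10a), 6 in het-Met mice (Scn1a, Scn9a, Scn2b, Scn3b, Cacng8 and Cacng4) and 10 on average, where 3.48%, 11.5% and 11.8% of all genes were called with the same centring. In WT 1 of 35 is below that share. Of the pore genes called higher in het-Met mice, 8 before centring, 2 were left, and the calls of Scn2a (p 0.0769), Scn3a (p 0.0578), Scn8a (p 0.0846), Cacna1d (p 0.210), Cacna1e and Cacna1h (p 0.0925) ended. Cacna1e, at 25228 bases the longest of the 35 genes, had centred values of 0.19 in WT (p 0.0601) and 0.17 in het-Met mice (p 0.0586).

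**Figure D4:**
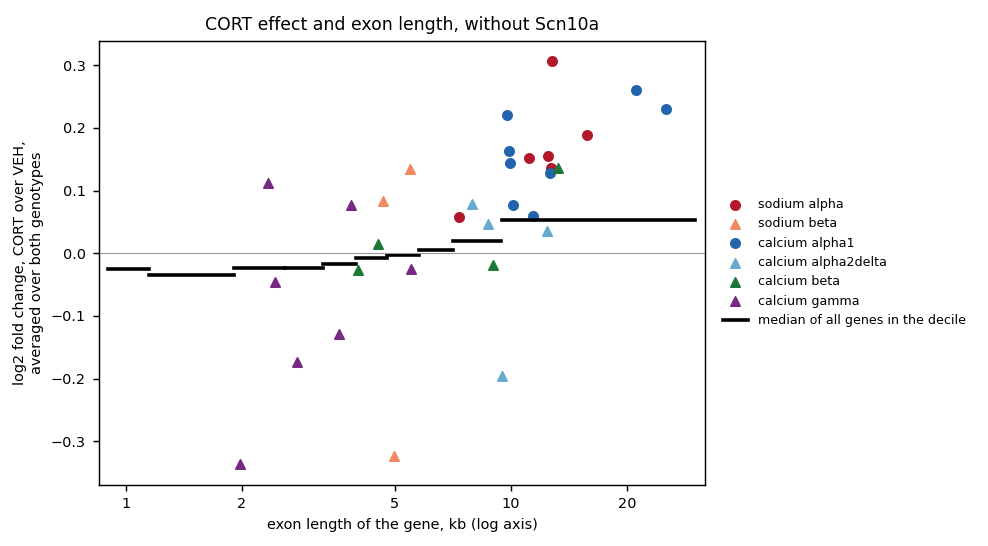
Log2 fold change of CORT over VEH averaged over both genotypes (vertical axis) against exon length in kb (horizontal log axis) for channel genes without Scn10a, with circles for pore and triangles for auxiliary subunits. Black bars give the median of all genes in each decile of exon length; every pore gene plotted lies above the bar of its decile.

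Some genes of proteins that anchor or tune sodium channels were also called, with values not centred by exon length. Of 18 such partners, all measured, 3 rose in WT (Ank3, Unc79 and Unc80) and none fell, where 2.25% of all genes rose and 1.57% fell. In het-Met mice 7 rose (Ank3, Nalcn, Nedd4l, Nrcam, Tnr, Unc79 and Unc80) and 1 fell, where 6.55% of all genes rose and 6.64% fell. The medians of the list were 0.09 in WT and 0.08 in het-Met mice. Ank3 encodes ankyrin-G, the scaffold that gathers sodium channels at the axon initial segment, and had 0.24 ± 0.10 in WT (p 0.0418) and 0.25 ± 0.09 in het-Met mice (p 0.0199). Unc79 and Unc80, partners of the sodium leak channel Nalcn, had 0.16 ± 0.07 (p 0.0332) and 0.14 ± 0.06 (p 0.0485) in WT. In het-Met mice they had 0.19 ± 0.06 (p 0.00749) and 0.18 ± 0.06 (p 0.00796), and Nalcn had 0.12 ± 0.04 (p 0.0211). Nedd4l, a ubiquitin ligase that removes sodium channels from the membrane, had 0.19 ± 0.07 in het-Met mice (p 0.0139).

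Of 24 calcium channel partners listed, 22 were measured. In WT 1 and in het-Met mice 2 of them were called, shares near the 3.83% and 13.2% of all genes, with medians of 0.00 in WT and 0.04 in het-Met mice. In WT 1 rose, Camk2a (0.13 ± 0.06, p 0.0471), a subunit of the kinase that facilitates L-type current. In het-Met mice Camk2b, a further subunit of that kinase, rose (0.19 ± 0.07, p 0.0236). Stx1a, the syntaxin that binds presynaptic calcium channels, fell (-0.45 ± 0.14, p 0.00714).

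In bulk tissue, fewer cells of a type and less RNA per cell cannot be told apart, and glial markers moved in het-Met mice together with the channel genes. Of 5 microglia markers 4 fell there (Csf1r, Cx3cr1, P2ry12 and Tmem119, list median -0.36), where 6.64% of all genes fell. In WT none did (median -0.25, background 1.57%), but the difference between genotypes did not pass the test for any of the 4 (p 0.220, 0.400, 0.263 and 0.890). Of 6 oligodendrocyte markers 3 fell (Cnp and Mag among them, list median -0.35). In WT none was called (list median -0.09). Among 5 markers of oligodendrocyte precursors, Gpr17 and Olig1 fell in het-Met mice (list median -0.21), while in WT Gpr17 fell and Cspg4 rose (list median 0.00). Astrocyte markers were divided, with Aqp4, Gfap and Gja1 lower and Aldh1l1 higher among 5 in het-Met mice (list median -0.25), and Aqp4 lower and Aldh1l1 higher in WT (-0.02).

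Single markers of neurons were called, to be read against 3.83% of all genes in WT and 13.2% in het-Met mice. Of 5 markers of excitatory neurons Camk2a rose in WT and Neurod6 in het-Met mice, with list medians of -0.07 and -0.00. Of 6 interneuron markers Gad1 rose in het-Met mice, with list medians of 0.07 and 0.03. Calb1 was the 1 of 5 dentate granule cell markers called, higher in WT (medians 0.11 and 0.19), and Pcp4 the 1 of 4 CA2 markers, lower in het-Met mice (medians -0.03 and 0.08). Of 6 endothelial and mural markers Rgs5 fell in WT (medians -0.01 and 0.06), and of 8 thalamus markers Tcf7l2 fell in het-Met mice (medians -0.13 and -0.17). No choroid plexus marker of 5 was called, although their medians were -1.54 in WT and 0.13 in het-Met mice, and none of 3 measured muscle markers was (0.01 and -0.22). The part of these markers in the channel results was not tested.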

How the data were processed

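RNA-seq was analysed from 12 vHPC libraries of 4 groups, each a pool of 2 animals per the labels. The authors discarded reads with a quality score below 15, aligned with STAR to GRCm38 with Ensembl annotation, counted with featureCounts and fitted limma-voom jointly over all groups (versions and gene filter not given in the sources used here). As deposited, log2 values are mean expression, the log2 fold change of VEH over CORT and its ordinary standard error, scores are the moderated t and F, and p-values are uncorrected, Benjamini-Hochberg adjusted or those of F. These are the authors' own fitted comparisons. Here signs were turned, and the SE is the log2 fold change over the moderated t. The difference between genotypes and the average were computed from both effects and SEs at 10.9 degrees of freedom (two-sided, Benjamini-Hochberg over 17564 genes). The formulas were tested on simulated data (Python 3.11.15, scipy 1.17.1). These had equal groups, equal SEs in both genotypes and 8 degrees of freedom, a simpler setting than the fit. GENCODE M21 gave exon lengths for 17557 genes; transcripts were searched for identical stretches of at least 75 bases. Named are members with uncorrected p below 0.05 in either genotype, the difference or the average, the highest and lowest of each class and genotype, and called list genes; Cacng3 and Cacng7 were named after their values were seen, and some genes are not reported here. Members and lists were chosen with earlier results of these data known. Alternatives were p below 0.01, adjusted p, ordinary SE, fold and expression minimums, centring by expression quintile or exon length, and means or moderated t for medians.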

Additional observations from a re-analysis of the deposited data

Results flagged for a closer look

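Scn10a was the channel gene whose CORT effect differed between genotypes, at 1.59 ± 0.37 in WT and -0.48 ± 0.31 in het-Met mice on the log2 scale. The effect in het-Met mice minus that in WT was -2.07 (uncorrected p 0.00120 from the limma-voom estimates, adjusted p 1.00), at a mean expression of -1.51 log2 CPM. Outlying libraries could not be looked for, since the tables hold no value per library.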

How the results depend on the processing

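No paired analysis was possible because the tables hold no values per library, and leaving out 1 replicate at a time could not be run for the same reason. Of the 3 WT calls, 1 was left with p below 0.01, with the ordinary SE, with a fold change above 1.3 and with length centring, and 0 with an adjusted p. With the expression minimum or without the cross-matching genes 2 were left, and centring by expression quintile gave 4. The WT DEG count of 1 became 0 with an adjusted p, with mean expression above 0 log2 CPM, or without the cross-matching sodium genes. The 11 het-Met calls became 4 with p below 0.01, 0 with an adjusted p or a fold change above 1.3, and 9 with the ordinary SE. They became 6 with length centring and 7 without the cross-matching genes. The 0 het-Met DEGs became 1 (Scn9a) with centring by expression quintile. The 1 difference between genotypes became 0 with an adjusted p, with the expression minimum or without the cross-matching genes. The 15 average calls became 10 with the ordinary SE, with either centring or without the cross-matching genes. They became 14 with the expression minimum, 7 with p below 0.01, 0 with an adjusted p and 1 with a fold change above 1.3. Taking means moved the sodium alpha value in WT to 0.37 and turned the sodium beta values to -0.0412 in WT and -0.0229 in het-Met mice, alpha2delta in het-Met mice to -0.0136 and gamma in WT to -0.0103. Alpha2delta in het-Met mice also turned to -0.00180 with length centring. The calcium beta value in het-Met mice turned to -0.13 as a median moderated t, -0.0303 with quintile and -0.00279 with length centring. The medians that changed sign lay near 0. That of sodium alpha in WT was 0.15, with Scn10a at 1.59 as the highest of its 8 values. The causes of these changes were not tested. No single channel gene that was called before or after changed sign under the ordinary SE or either centring. Some uncalled genes near 0 did. With length centring Cacna1a in het-Met mice went from 0.06 to -0.00855, and Cacna2d1 in WT from 0.02 to -0.02. Length centring and leaving out the cross-matching genes were chosen after seeing the data.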
